A study of Xenopus laevis with 4 samples.

Results

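Genes of the BMP, activin and TGF-β pathways were followed in the dorsal and the ventral pancreatic bud of *Xenopus laevis*. They were chosen by symbol from the probe annotation of the array. The rule itself used no measured value, but it was set with earlier results of these data known. The selection took ligands, receptors, Smads, Smurfs, secreted inhibitors, chordin-cleaving proteases and the Id genes, and left out tgfbi. It held 80 of the 15491 probe sets that are not controls and named 67 of the 7531 genes that have a probe set of their own, with the .L and .S copies of this allotetraploid frog counted separately. The symbol rule also took in fstl1.L, a secreted follistatin-like glycoprotein, and tgfb1i1.L, a focal adhesion adaptor. A further 8 probe sets that were annotated with several symbols, of which at least 1 matched, were left out.

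The samples came from anaesthetised tadpoles and were 2 dorsal and 2 ventral pools of buds dissected before fusion, each of 1000 to 3000 buds with 1 to 5 ng of total RNA. Each pool was hybridised to its own 1-colour Affymetrix array. Embryos had been raised in dilute MMR, a salt medium. The labels name no strain, stage, genotype or treatment other than the anaesthetic MS-222, and do not say whether pools of the same bud came from separate clutches, so p-values speak only of the spread among these 4 pools, which may be technical. A bud is a mixed tissue, and in such samples fewer cells of a type and less RNA per cell cannot be told apart.

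Ligands of this superfamily are secreted dimers that bring type I and type II receptor kinases together. The type I receptor phosphorylates receptor-regulated Smads, which join smad4 and enter the nucleus. The BMP branch acts through smad1, smad5 and smad9, and the activin, nodal and TGF-β branch through smad2 and smad3. Id genes are direct targets of BMP signalling in many vertebrate cells, and their products bind bHLH transcription factors and keep them off DNA. Studies in mouse and chick tie BMP from neighbouring mesoderm to liver fate in the ventral foregut, and activin from the notochord to the dorsal pancreatic endoderm.

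The values are deposited probe-set intensities on a linear scale in arbitrary units, and with controls left out each array had a mean of 100. Array medians were 21.8 and 24.2 in dorsal buds, against 23.8 and 23.7 in ventral buds. Detection calls were not used here, so the 17 tag control probe sets of the array, made for sequences that are not frog transcripts, served as a measure of background. Their highest value on an array was 11.7 and 12.6 in dorsal buds, against 21.5 and 9.37 in ventral buds. Across the 34 tested pathway probe sets replicates differed with an SD of 0.42 (log2) in dorsal and 0.31 in ventral buds, and across all tested probe sets with an SD of 0.48 in dorsal and 0.29 in ventral buds. Dorsal replicate 1 differed less from either ventral array than from dorsal replicate 2. Against ventral replicates 1 and 2 its SD was 0.344 and 0.340 across the 34. Across all tested probe sets it was 0.42 and 0.46. The dorsal arrays also lay apart in the ratio of the 3′ to the 5′ Gapd control probe set, at 9.69 and 5.53 in dorsal buds, against 7.52 and 7.55 in ventral buds. The pancreas marker pdia2.L, an early pancreatic disulfide isomerase, stood at 2483 and 977 in dorsal buds, against 1930.0 and 1039 in ventral buds. Not every pancreas marker was high in both buds. The endocrine marker pcsk2.L was at 81.6 and 155 in dorsal buds, against 5.26 and 2.83 in ventral buds. With 2 arrays a group, precision is limited throughout by the number of arrays.

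The series compares the buds with each other. Among the pathway genes bright enough to test were all 5 Id genes, 8 of 11 receptor genes, 4 of 7 signal-transducing Smads and 2 of 4 genes of inhibitory Smads and Smurfs. Most ligands and secreted inhibitors were too dim, and no pathway gene passed the test for a difference. Of the 80 probe sets, 34 in 26 genes passed a filter on low values (a mean log2(intensity + 6) above its 40th percentile over the array) and were tested. In limma, with p-values adjusted by Benjamini-Hochberg over all 9294 tested probe sets, 0 of the 34 reached an adjusted p under 0.05, where 0.258% of all tested probe sets did. The lowest adjusted p in the pathway was 0.317. An unadjusted p under 0.05 was reached by 4 of the 34 (11.8%), all higher in ventral buds, where 8.62% of all tested probe sets reached it in either direction and 5.21% with ventral higher. Counted once per gene, by the probe set that represents it, 2 of the 26 genes reached it, id4.S and smad9.S. The others were dimmer probe sets of id3 and bmpr1a.L, whose brighter ones did not reach it. Fitted without the intensity trend, limma also called 0 of the 34, with 4 at an unadjusted p under 0.05.

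The dorsal and ventral arrays did not overlap for 14 of the 34 tested probe sets (41.2%), a share near the 39.9% of all tested probe sets. Dorsal was higher in 4 of them (11.8%, against 21.9% of all) and ventral in 10 (29.4%, against 18.1% of all). Some genes count more than once here. By the probe set that represents each of the 26 genes, 2 were apart with dorsal higher, 6 with ventral higher, and 18 overlapped. The median log2 difference, dorsal minus ventral, was -0.14 over the 34 and 0.03 over all tested probe sets. Over all 80 with no filter it was -0.13, against 0.01 over all probe sets. The array median of the 34 varied between replicates with a pooled SD of 0.22 (log2), which is more than the size of the -0.14. The added 6 pulls every fold change and log2 difference towards 0, most of all for dim genes.

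**Figure D1:**
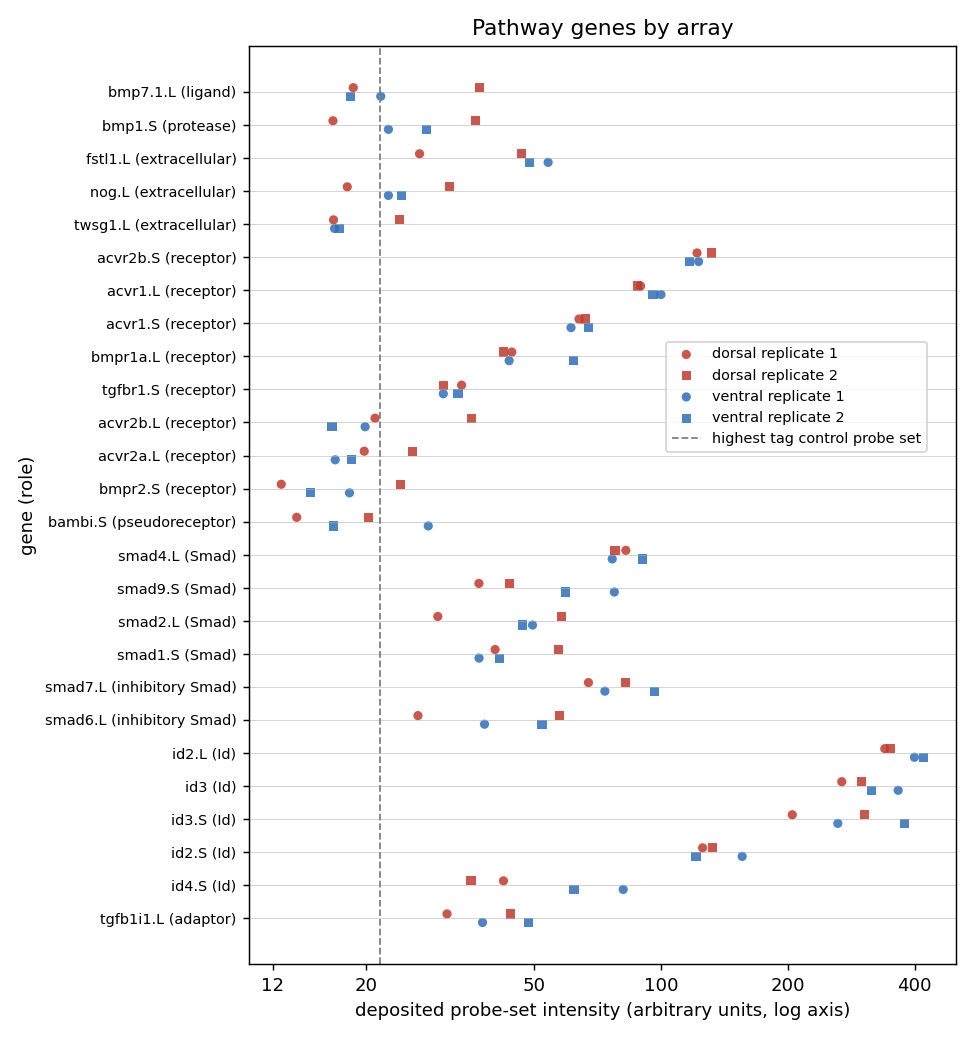
Deposited intensity (log axis) of the 26 tested pathway genes on each array, 1 row per gene with its role; circles and squares are replicates 1 and 2, red is dorsal and blue is ventral, and the dashed line is the highest tag control value, 21.5. Red and blue points are apart for id4.S and smad9.S, with ventral higher, and mixed for smad4.L, acvr1.S and tgfbr1.S.

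**Figure D2:**
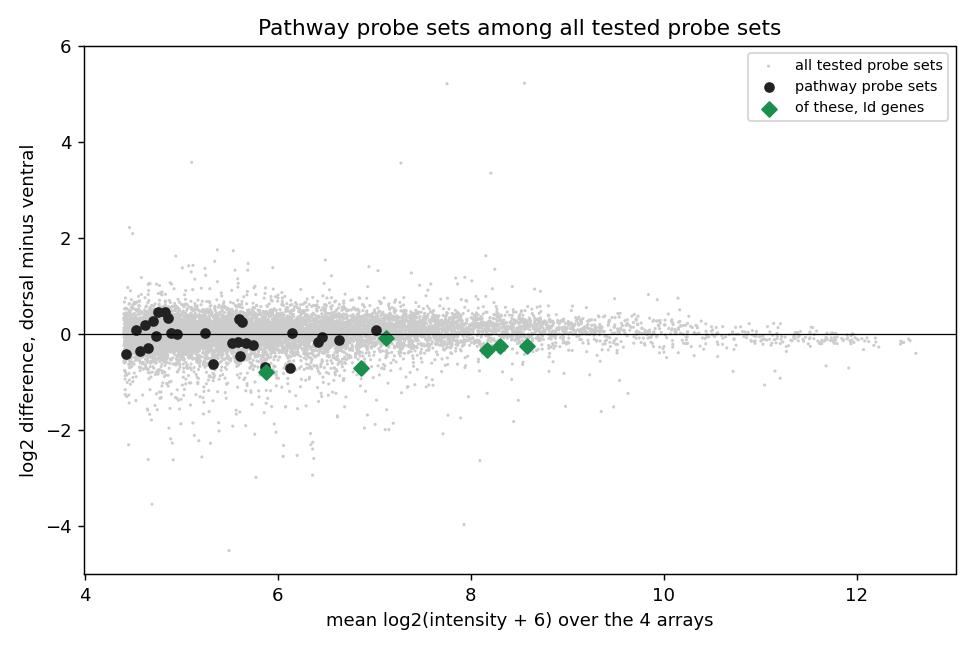
Log2 difference, dorsal minus ventral (y axis), against mean log2(intensity + 6) over the 4 arrays (x axis) for the 9294 tested probe sets (grey), the 34 pathway probe sets (black) and, of these, the 6 probe sets of Id genes (green diamonds). Pathway probe sets lie between -0.79 and 0.47. Below 0 are 22 of the 34 (64.7%), whereas the median over all tested probe sets was 0.03, so most of those lie above 0. All 6 Id probe sets, from 5 genes, lie below 0, and none of them passed.

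Among the tested pathway genes, the difference was largest for an Id gene. id4.S, an inhibitor of bHLH factors, was at 42.3 and 35.4 in dorsal buds, against 81.4 and 62.2 in ventral buds. The ventral arrays both lay above the dorsal ones. The log2 difference was -0.79 ± 0.22 (SE; 95% interval -1.31 to -0.27), 1.73-fold higher in ventral, and did not pass (limma adjusted p = 0.317). Without 1 array the difference ran from -0.97 to -0.61.

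The annotation gives the symbol id3, with no chromosome suffix, to a pair of probe sets. The brighter of them was at 269 and 299.6 in dorsal buds, against 366 and 315 in ventral buds, which gave a log2 difference of -0.25 ± 0.17 (SE). The dimmer, whose name marks probes that can bind other transcripts, was at 102 and 70.0 in dorsal buds, against 132 and 154 in ventral buds. It differed by -0.71 ± 0.23 (SE; unadjusted p = 0.017, limma adjusted p = 0.428). Both id3 probe sets had ventral arrays above dorsal ones, but by unequal amounts. The separately annotated copy id3.S was at 205 and 304 in dorsal buds, against 263 and 379 in ventral buds, so its groups overlapped (log2 difference -0.33 ± 0.25).

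id2.L had small spread: 339.8 and 351 in dorsal buds, against 399.5 and 419.6 in ventral buds. The groups did not overlap, and the log2 difference of -0.24 ± 0.15 (SE; 95% interval -0.59 to 0.11) did not pass (limma adjusted p = 0.709). For id2.S the values were 126 and 133 in dorsal buds, against 156 and 121 in ventral buds. Its groups overlapped, with a log2 difference of -0.09. In all, 3 of 5 Id genes had ventral arrays above dorsal ones and the other two overlapped; among all tested probe sets 18.1% were apart with ventral higher.

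**Figure D3:**
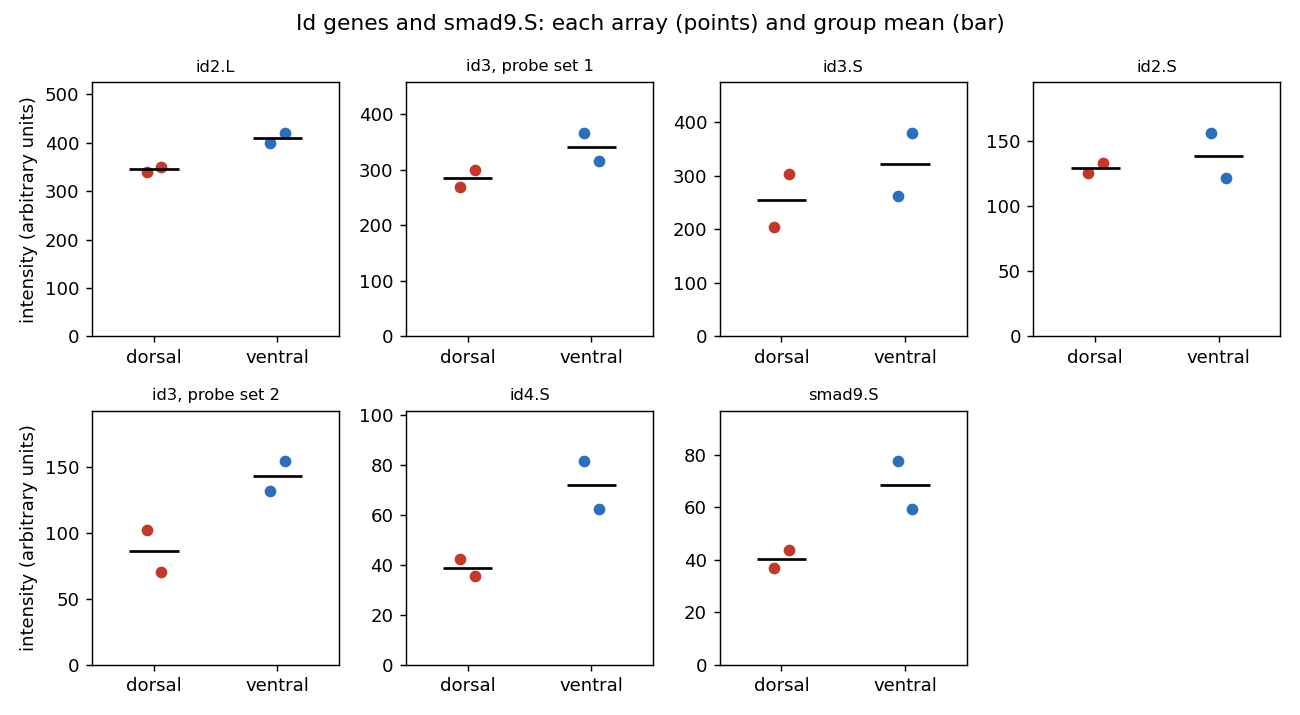
Intensity (linear axes from 0, arbitrary units) of each probe set of the Id genes and of smad9.S, with 1 point per array, dorsal at left and ventral at right, and a bar at the mean of the group (n = 2 arrays each). The gap between the groups is widest relative to the values for id4.S (38.9 and 71.8 on average in dorsal and ventral) and smad9.S (40.4 and 68.5).

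Among the receptor-regulated Smads, smad9.S, of the BMP branch, stood at 37.0 and 43.7 in dorsal buds, against 77.6 and 59.5 in ventral buds. Ventral arrays were both higher. The log2 difference was -0.68 ± 0.22 (SE; 95% interval -1.20 to -0.16), 1.60-fold higher in ventral, and it did not pass (unadjusted p = 0.0176, limma adjusted p = 0.429). Without 1 array it ran from -0.85 to -0.50.

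The other BMP Smad that could be tested, smad1.S, pointed the other way without passing. Its brighter probe set was at 40.5 and 57.2 in dorsal buds, against 37.1 and 41.4 in ventral buds (log2 difference 0.26 ± 0.23, SE). Its dimmer probe set, at 16.6 and 24.7 in dorsal buds, against 24.6 and 18.0 in ventral buds, differed by -0.04, and by 0.012 after quantile normalization. Both sets of arrays overlapped.

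smad2.L, which carries activin, nodal and TGF-β signals, was at 29.6 and 58.2 in dorsal buds, against 49.6 and 46.9 in ventral buds. The dorsal arrays enclosed the ventral ones, and the log2 difference was -0.18 ± 0.30 (SE). For smad4.L, the partner shared by all branches, the brighter probe set was at 82.6 and 77.9 in dorsal buds, against 76.7 and 90.5 in ventral buds, which gave a log2 difference of -0.05 (95% interval -0.51 to 0.40). Its other probe set had dorsal arrays above ventral ones, at 50.6 and 45.7 in dorsal buds, against 41.5 and 33.4 in ventral buds (log2 difference 0.32 ± 0.21, SE; limma adjusted p = 0.727). The probe sets of smad4.L thus did not point the same way.

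The inhibitory Smads, which are induced by the pathway and damp it, did not pass. smad6.L, which acts mainly on BMP signals, was at 26.5 and 57.6 in dorsal buds, against 38.2 and 52.3 in ventral buds. Its dorsal arrays enclosed the ventral ones (log2 difference -0.16 ± 0.34, SE).

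For smad7.L, which acts on all branches, the probe set with the highest mean was at 67.4 and 82.4 in dorsal buds, against 73.7 and 96.7 in ventral buds (log2 difference -0.17). A second was at 71.5 and 32.5 in dorsal buds, against 63.4 and 107 in ventral buds (-0.70 ± 0.38, SE), and its groups overlapped. Another, at 13.2 and 17.1 in dorsal buds, against 20.9 and 20.5 in ventral buds, had no overlap (-0.35), but all its values lay below 21.5, the highest tag control value. It was above the tag controls of the same array on 3 arrays. All 3 probe sets of smad7.L were on the ventral side and none passed.

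Without dorsal replicate 1, 3 pathway probe sets passed (limma, with the lone dorsal array taken to vary like the ventral pair), where 9.71% of all tested probe sets did. They were the dimmer probe set of id3 (log2 difference -0.97, adjusted p = 0.00491), the second of smad7.L (-1.20, adjusted p = 0.0071) and id4.S (-0.90). Without any other array none passed.

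Of the 11 receptor genes, 8 could be tested and 0 passed (limma, with 0 at an unadjusted p under 0.05 in the probe set that represents the gene). Their log2 differences lay between -0.24 and 0.47. acvr2b.S, a type II receptor for activins, was at 122 and 132 in dorsal buds, against 123 and 117 in ventral buds. The groups overlapped, and the log2 difference was 0.08 (95% interval -0.34 to 0.49). Its other probe set, too dim to be tested, was at 6.24 and 4.43 in dorsal buds, against 1.28 and 2.40 in ventral buds, with dorsal higher on both arrays and none above its tag controls. acvr1.L, a type I receptor that transmits BMP signals, was at 89.5 and 88.1 in dorsal buds, against 100.1 and 95.8 in ventral buds, which gave a log2 difference of -0.13 (95% interval -0.56 to 0.29). Its arrays did not overlap, though the gap was small.

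The copy acvr1.S was at 64.0 and 66.4 in dorsal buds, against 61.2 and 67.5 in ventral buds (log2 difference 0.02, 95% interval -0.43 to 0.47). tgfbr1.S, the type I receptor for TGF-β, was at 33.7 and 30.5 in dorsal buds, against 30.5 and 33.0 in ventral buds (log2 difference 0.01, 95% interval -0.47 to 0.50). The groups overlapped for both genes. These intervals bound the difference and do not show that the buds were alike.

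bmpr1a.L, a type I BMP receptor, had 3 tested probe sets. The brightest was at 44.3 and 42.4 in dorsal buds, against 43.7 and 62.0 in ventral buds, which overlapped (log2 difference -0.24 ± 0.23, SE). The next, with probes that can bind other transcripts, was at 26.2 and 26.8 in dorsal buds, against 35.1 and 54.6 in ventral buds and differed by -0.62 ± 0.25 (SE; unadjusted p = 0.0419, limma adjusted p = 0.551). The dimmest was at 12.9 and 12.2 in dorsal buds, against 19.3 and 18.2 in ventral buds (-0.42). All 3 were on the ventral side, and in the dimmer ones the groups did not overlap. The dimmest had all its values below 21.5, the highest tag control value, and was above the tag controls of its array on 2 arrays alone.

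The remaining type II activin receptor genes were on the dorsal side and did not pass. acvr2b.L was at 21.0 and 35.5 in dorsal buds, against 19.9 and 16.6 in ventral buds, the largest dorsal difference among the tested genes of the pathway (log2 0.47 ± 0.27, SE; limma adjusted p = 0.694). acvr2a.L was at 19.8 and 25.8 in dorsal buds, against 16.9 and 18.5 in ventral buds (log2 difference 0.27 ± 0.23). Neither overlapped, and for both genes the ventral values and that of dorsal replicate 1 lay below 21.5, the highest tag control value. Both genes were above the tag controls of the same array on 3 arrays. The type II BMP receptor gene bmpr2.S, at 12.6 and 24.1 in dorsal buds, against 18.3 and 14.7 in ventral buds, overlapped (0.08). The BMP and activin pseudoreceptor gene bambi.S, whose product lacks a kinase, was at 13.7 and 20.3 in dorsal buds, against 28.1 and 16.8 in ventral buds and overlapped as well (-0.29 ± 0.29).

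Secreted components were fewer among the genes that could be tested. fstl1.L was at 26.8 and 46.7 in dorsal buds, against 54.0 and 48.7 in ventral buds. Its groups did not overlap, with a log2 difference of -0.46 ± 0.27 (SE; limma adjusted p = 0.694). Leaving out 1 array gave -0.81 to -0.12. nog.L, which encodes the BMP antagonist noggin, was at 18.0 and 31.5 in dorsal buds, against 22.6 and 24.3 in ventral buds. The dorsal arrays enclosed the ventral ones (log2 difference 0.03, 95% interval -0.61 to 0.67).

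twsg1.L encodes twisted gastrulation, which binds BMPs and chordin, and was at 16.7 and 24.04 in dorsal buds, against 16.8 and 17.3 in ventral buds (log2 difference 0.18). The groups overlapped. The only ligand tested was bmp7.1.L, at 18.6 and 37.1 in dorsal buds, against 21.7 and 18.3 in ventral buds (0.33 ± 0.31, SE). The groups overlapped, and without dorsal replicate 2 the difference was -0.07.

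For bmp1.S, a metalloprotease that cleaves chordin and releases BMPs, the probe sets disagreed. The brightest, whose name marks probes that can bind other transcripts, was at 16.7 and 36.3 in dorsal buds, against 22.6 and 27.8 in ventral buds. Its dorsal arrays enclosed the ventral ones. The next was at 21.9 and 30.01 in dorsal buds, against 13.7 and 20.6 in ventral buds, with no overlap and dorsal higher (log2 difference 0.47 ± 0.26, SE; limma adjusted p = 0.677). Another, too dim to be tested, was at 2.24 and 1.95 in dorsal buds, against 13.5 and 10.8 in ventral buds, with ventral higher. The adaptor gene tgfb1i1.L, at 31.1 and 44.0 in dorsal buds, against 37.8 and 48.5 in ventral buds, overlapped (-0.18).

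**Figure D4:**
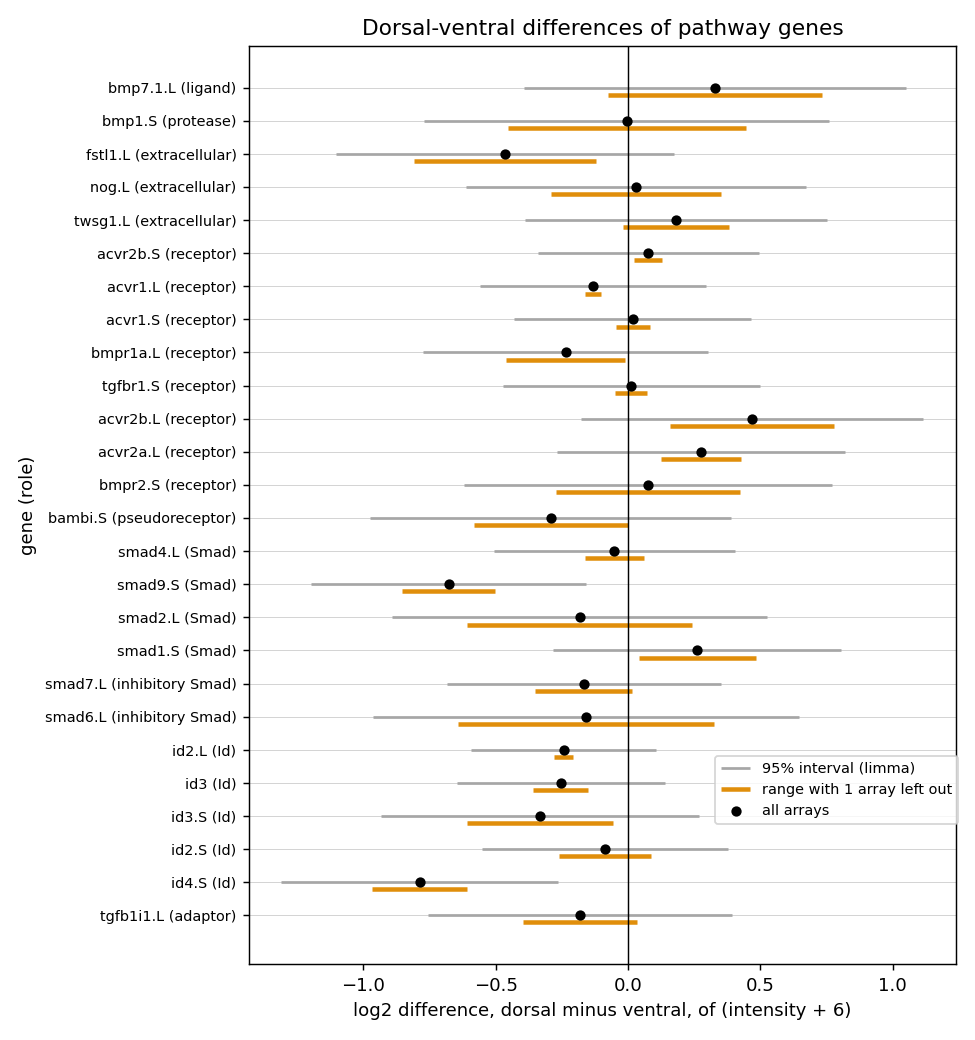
Log2 difference, dorsal minus ventral, of each of the 26 tested genes (x axis, black points), with its 95% interval from limma (grey) and its range when 1 array is left out (orange). The intervals of id4.S and smad9.S do not reach 0, and 21 of the 26 intervals lie within 1 log2 unit of 0.

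How small a difference could be seen varied by gene. For 21 of the 26 tested genes the 95% interval, not adjusted for the number of genes, lay within 1 log2 unit of 0 on this scale, which bounds a change to less than 2-fold; among all tested probe sets 82.2% had such an interval, as did 25 of the 34 of the pathway. In the probe set that represents the gene, the intervals of id4.S, smad9.S, fstl1.L, acvr2b.L and bmp7.1.L crossed that bound. So did the interval of another tested probe set of each of id3, smad7.L, bmpr1a.L and bmp1.S, so these genes were not bounded by all their probe sets.

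The remaining 46 probe sets lay below the filter, and 45 of them had all 4 values below 21.5, the highest tag control value of ventral replicate 1. Against the tag controls of the same array, 31 were above on no array. acvr1b.S was above them on 3 arrays, and tgfb1.L, tgfb2.L, bambi.L, smad1.L and smad8c on 2. The 46 ranged from 0.179 to 23.7. Of the 21 ligand genes in the selection, 20 were in this range: the BMPs bmp2.L, bmp2.S, bmp4.S and bmp7.2.L, the growth and differentiation factors gdf1.S, gdf3.S, gdf6.S and gdf7.S, the activin subunits inhbb.L and inhbc.1.L, tgfb1.L, tgfb2.L, 6 nodal genes and both copies of lefty, a nodal antagonist. The inhibitors chrd.1.S (chordin), fst.L (follistatin), grem1.L (gremlin), bmper.L, szl.L and szl.S (sizzled), and ltbp1.S, which stores latent TGF-β in the matrix, were as dim. So were the tolloid protease genes bmp1.L, tll1.S, tll2.L and tll2l.L, the receptor genes acvr1b.S, bmpr1a.S and tgfbr2l.L, and the genes smad3.L, smad8c, smurf1.L and smurf2.S. The copies bambi.L, smad1.L and twsg1.S were in this range too. A low intensity on this array does not show that a transcript was absent, since the response of each probe set is unknown.

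Of the 46 dim probe sets, 26 had groups that did not overlap, 8 with dorsal and 18 with ventral higher. Among all probe sets below the filter 36.5% did not overlap, 15.3% with dorsal and 21.2% with ventral higher. inhbb.L, an activin subunit, was at 3.27 and 8.999 in dorsal buds, against 16.6 and 21.4 in ventral buds. inhbc.1.L, another subunit, was at 3.37 and 5.28 in dorsal buds, against 11.3 and 12.1 in ventral buds. Both were higher on both ventral arrays, and each was above the highest tag control of its array on 1 array alone.

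bmper.L was at 1.28 and 0.768 in dorsal buds, against 7.42 and 9.12 in ventral buds, with no array above its tag controls. On the dorsal side, smurf2.S, a ubiquitin ligase that degrades Smads, was at 6.95 and 12.7 in dorsal buds, against 2.59 and 2.46 in ventral buds. Its relative smurf1.L was at 8.27 and 10.5 in dorsal buds, against 4.61 and 4.52 in ventral buds. bmp2.S was at 10.6 and 12.3 in dorsal buds, against 5.84 and 3.23 in ventral buds. These values do not stand clear of the tag controls, and when all probe sets were fitted with no filter 0 of the 80 passed, where 0.129% of all probe sets did (limma; 14 at an unadjusted p under 0.05, a level 8.31% of all probe sets reached; lowest adjusted p 0.232). The dim genes given here were chosen after their values were seen.

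**Figure D5:**
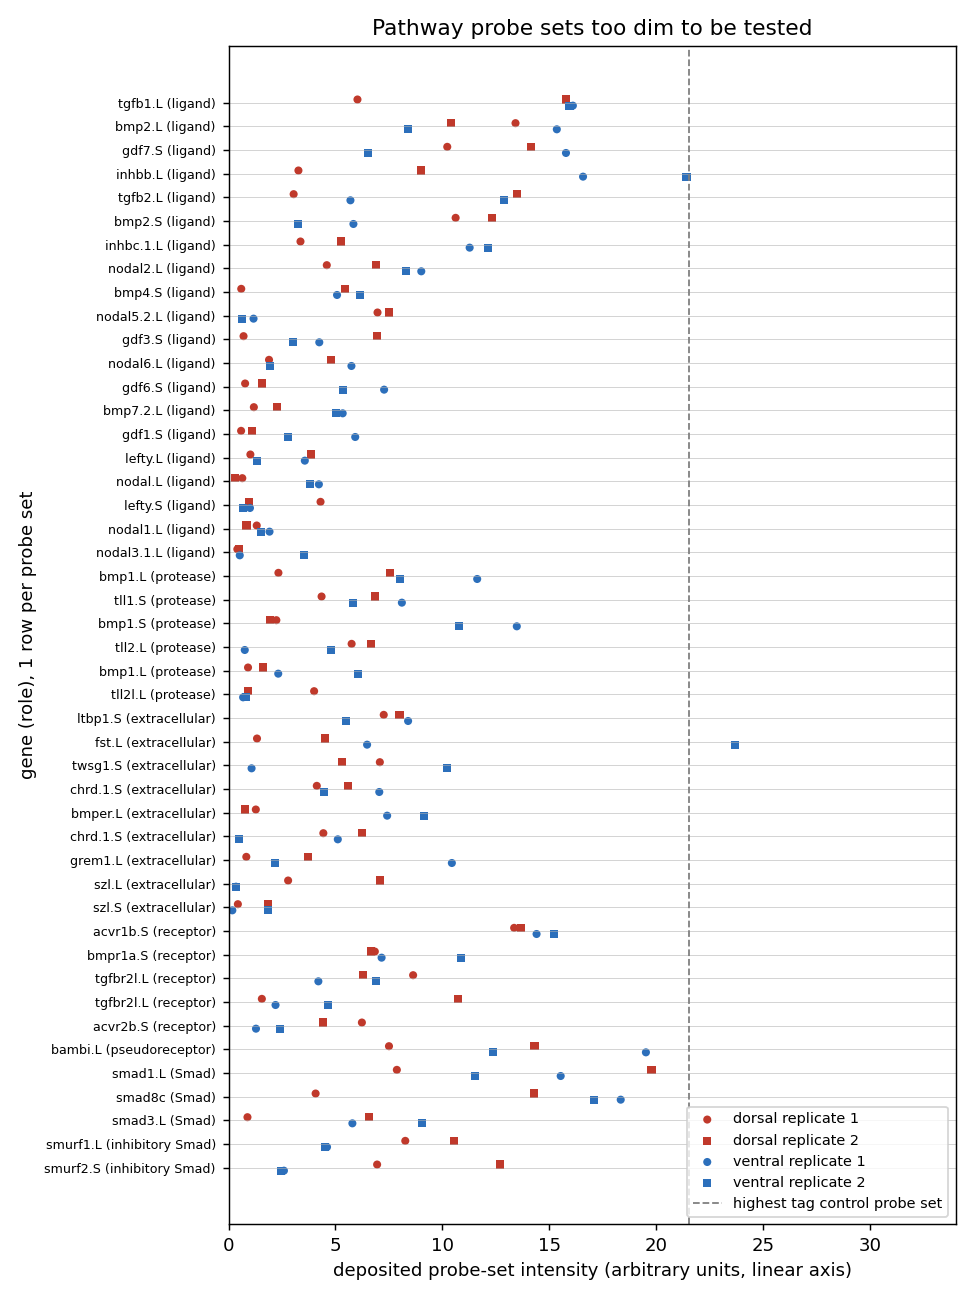
Intensity (linear axis, arbitrary units) on each array of the 46 pathway probe sets below the filter, grouped by role; red is dorsal, blue is ventral, circles and squares are replicates 1 and 2, and the dashed line is the highest tag control value, 21.5. All points but fst.L on ventral replicate 2, at 23.7, lie left of the line.

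A separate list of other genes of these pathways (convertases, co-receptors, Smad cofactors, phosphatases and targets) held 44 genes, of which 24 could be tested and 0 passed over all probe sets (limma). An unadjusted p under 0.05 was reached by 2 with dorsal and 3 with ventral higher, 5 of 24 where 8.62% of all tested probe sets reached it, and the median log2 difference was -0.12. furin.L, the convertase that matures many of these ligands, was at 61.4 and 38.3 in dorsal buds, against 123 and 79.1 in ventral buds (-0.94 ± 0.29, SE; limma adjusted p = 0.402). bgn.L, which encodes the matrix proteoglycan biglycan, was at 32.3 and 36.2 in dorsal buds, against 56.7 and 49.2 in ventral buds (-0.55). ski.S, a corepressor of Smads, was at 28.7 and 29.1 in dorsal buds, against 44.3 and 42.5 in ventral buds (-0.50). In each of the 3 both ventral arrays were higher.

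On the dorsal side, ppm1a.S, a phosphatase that acts on Smads, was at 109 and 111 in dorsal buds, against 79.0 and 72.9 in ventral buds (0.50). lemd3.S, an inner nuclear membrane protein that binds Smads, was at 40.1 and 38.7 in dorsal buds, against 23.6 and 28.6 in ventral buds (0.50). Both had dorsal arrays above ventral ones. fetub.S, a plasma protein gene that is also in the liver list, was at 618 and 1239 in dorsal buds, against 1345 and 1125 in ventral buds and overlapped (-0.49).

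Markers of other tissues differed between the same arrays. For comparison, 0.258% of all tested probe sets passed and 8.62% had an unadjusted p under 0.05 (limma). For the skeletal muscle list the summed intensity was 888 to 909 in dorsal and 1248 to 1621 in ventral buds. Of its 22 genes, 14 were tested, 0 passed (limma, with 8 at an unadjusted p under 0.05, all ventral) and the median log2 difference was -1.37. Its symbol pattern also took in the non-muscle myosin genes myh9.L and myh10.S and the smooth muscle myosin gene myh11.S. The brightest member of the list, myh9.L, was at 288 and 469 in dorsal buds, against 296 and 380 in ventral buds, and overlapped. For the blood list the sums were 5983 to 9338 in dorsal and 11087 to 15407 in ventral buds; 11 of 18 genes were tested, 0 passed (9 at an unadjusted p under 0.05, all ventral) and the median was -1.04. For the liver list the sums were 3783 to 7071 in dorsal and 8579 to 8911 in ventral buds. Of its 22 genes 21 were tested and 3 passed, all ventral (limma, with 11 at an unadjusted p under 0.05, all ventral). The median was -0.77. These 3 lists had higher sums in both ventral arrays, as id4.S and smad9.S did.

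Sums of the mesenchyme and smooth muscle list overlapped, at 1778 to 2497 in dorsal and 2158 to 2798 in ventral buds (13 of 18 genes tested, 0 passed in limma with 1 dorsal and 3 ventral at an unadjusted p under 0.05, median -0.29). Sums of the endothelium list were 223 to 226 in dorsal and 169 to 216 in ventral buds, higher in both dorsal arrays (5 of 6 genes tested, 0 passed in limma and 0 at an unadjusted p under 0.05, median 0.31). The endocrine list stood at 3685 to 4404 in dorsal and 149 to 179 in ventral buds (7 of 13 tested, median 1.76). In limma 4 passed and all 7 had an unadjusted p under 0.05, all dorsal. The exocrine list stood at 5155 to 14271 in dorsal and 6005 to 11382 in ventral buds (8 of 10 tested, 0 passed in limma with 1 at an unadjusted p under 0.05, median 0.16). No marker was listed at 0. The genes above the tag controls on no array were 5 of the muscle, 1 of the blood, 1 of the liver, 3 of the mesenchyme, 1 of the endothelium, 1 of the endocrine and 2 of the exocrine list. The part of these tissues in the values of id4.S, smad9.S and the other genes of the pathway was not tested.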

How the data were processed

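Per the labels' protocols, cDNA of the pooled dorsal and ventral buds was primed with oligo(dT), which favours 3′ ends, and biotin entered the copy RNA transcribed from it. The labelling protocol names a larger typical amount of RNA than the sample descriptions give, and no amplification step is recorded. The deposited values are probe-set intensities on a linear scale; the submitters' processing notes name MAS5 without a version, and scaling target and detection calls are not given in the sources used here. Of 15611 probe sets, 120 were controls; of the rest 9304 carried 1 gene symbol, 195 several and 5992 none, and only those with 1 were named. Gene identifiers of 77 of the 80 pathway probe sets matched the RefSeq table of *Xenopus laevis* v10.1, with 0 changed symbols. No sequence is shown.

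A pseudocount of 6 (the 20th percentile) was added before log2, and probe sets with a mean above the 40th percentile were tested in R 4.3.3 with limma 3.58.1 (lmFit, eBayes with trend), with no covariate and all 4 arrays in the fit. Log2 differences are dorsal minus ventral. A gene with several probe sets is represented by that with the highest mean log2, and the others of a tested gene are given beside it. All 26 genes with a tested probe set were named; other pathway genes were the 6 tested with the largest difference. Symbol patterns gave the roles, the other pathway genes and the marker lists. The genes and lists were chosen with earlier results of these data known. The procedure was tested on simulated data. Alternatives were the pseudocount, the filter, quantile normalization, the trend, a replicate block and each array left out.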

Additional observations from a re-analysis of the deposited data

How the results depend on the processing

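The pathway count of 0 held under every alternative run except without dorsal replicate 1, and ran from 0 to 3 with 1 array left out. The median log2 difference of the pathway probe sets stayed below 0 under all alternatives and ran from -0.27 to -0.03 with 1 array left out. The array median of these probe sets varied between replicates with a pooled SD of 0.22. Over all probe sets, the count of 24 became 13 when filtered at the 60th percentile, and with 1 array left out it ran from 4 to 902. With the replicate number as a block it was 67, and 0 in the pathway, but the deviations of same-numbered arrays correlated at 0.05 and nothing in the labels pairs the pools. The count of 14 pathway probe sets without overlap was 40 of 80 with no filter (38.6% of all probe sets) and 8 of 20 with the filter at the 60th percentile (40.7% of all), which change how many are tested, and 20 to 26 with 1 array left out, where fewer arrays have to separate (58.8% to 76.5% of the 34, against 62.1% to 78.9% of all). Of the 26 tested genes, 13 kept their direction in every alternative run and 13 turned in at least 1. The filter, the trend and the replicate block leave each difference unchanged, so they could not turn it. Genes whose groups did not overlap, 2 with dorsal and 6 with ventral higher, could not turn with another pseudocount or 1 array left out. Keeping direction was thus partly fixed beforehand. The log2 difference of bmp1.S was 0.012 with 4 times the pseudocount and 0.054 after quantile normalization, and the cause was not tested. With 1 array left out it ran from -0.45 to 0.44. The other genes that turned did so only with 1 array left out, where bmp7.1.L ran from -0.074 to 0.73, smad2.L from -0.61 to 0.24, twsg1.L from -0.020 to 0.38, tgfb1i1.L from -0.40 to 0.034, smad7.L from -0.35 to 0.016, smad6.L from -0.64 to 0.33, id2.S from -0.26 to 0.087, bmpr2.S from -0.27 to 0.42, smad4.L from -0.16 to 0.060, nog.L from -0.29 to 0.35, acvr1.S from -0.046 to 0.082 and tgfbr1.S from -0.048 to 0.073. Signal over background limits the 46 dim probe sets. It also limits tested ones, since the dimmest probe sets of smad7.L and bmpr1a.L had all their values below 21.5. The probe sets that represent acvr2b.L, acvr2a.L, bmpr2.S, twsg1.L and bambi.S were above 21.5 on 1 array alone. That value comes from ventral replicate 1, and the tag controls of the other arrays were lower. Against the tag controls of its own array, bambi.S was above on 4 arrays, and acvr2b.L, acvr2a.L, bmpr2.S and twsg1.L on 3.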
